A study of Capsicum annuum with 78 samples.

Results

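Described here are 6 libraries of pepper leaves, 3 taken 24 h after NaCl was given and 3 taken from mock plants at the same hour, out of 78 libraries in all, and they were chosen by the treatment and time in their labels. The plants were Capsicum annuum of the cultivar CM334 at 6 weeks of age, and no transgene or mutant allele is named. NaCl plants were given a solution of 400 mM NaCl, and mock plants were sampled alongside without the stress. A library was made from a pool of 4 plants and read as strand-specific RNA-seq of total leaf RNA, so the 3 replicates of a group are pools and not single plants. The other libraries of the series (mock at 5 more times, NaCl at 4 more times, mannitol, heat and cold) entered the same fit and are used below for comparison only. In bulk leaf, fewer cells of a type and less RNA per cell cannot be told apart, and every share or fold below is relative to the total RNA of its library.

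Salt around the roots reaches a plant as an osmotic stress, because water becomes harder to take up, and later as an ionic stress, when sodium and chloride build up in the leaves. In the best studied plants the first part acts largely through abscisic acid (ABA), a hormone that closes stomata and switches on genes of dehydration tolerance. ABA receptors bind and block the clade A type 2C protein phosphatases, which otherwise hold back the kinases of the pathway, and genes of these phosphatases are themselves switched on by ABA. Transcription factors of the NAC family, aquaporins, which are water channels, chaperones and enzymes of amino acid metabolism are among the genes known to respond.

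The deposited table names genes by a scaffold and a running number, such as scaffold303.8, and 0 of its 35884 identifiers stood in the reference name table used here. A symbol is given below only for 9 genes that the study's heatmap labels with a closest Arabidopsis match, and the roles stated for them are those of the Arabidopsis genes. Only 4 of these identifiers (HSP21, RD26, HGO and MOS4) could be read outright. For GAMMA-TIP, ATPP2CA, ABI2, AAP7 and ATMGL digits were blurred, and the identifier used was the only possible reading that ranked among the first 100 genes of its stress in the direction the heatmap shows. These 5 pairs of symbol and identifier are therefore uncertain, and their direction was fixed by how they were read. MOS4, though read outright, ranked 222 in NaCl by the same ranking, outside the first 100, so its pair is uncertain too. No leaf marker could be looked up, so the labelled tissue was not checked against its markers. Total counts were 6340577, 6643884 and 6446720 in the NaCl libraries and 7216427, 6276225 and 7065383 in the mock libraries. Each of the 6 libraries lay nearest to a library of its own group among the 78. Pearson's r of log2 CPM (counts relative to the TMM-scaled library total) over the tested genes was 0.986 to 0.987 between NaCl replicates, 0.984 to 0.987 between mock replicates and 0.888 to 0.909 between the groups, as a description across genes. The median SD of log2 CPM over replicates was 0.146 in NaCl and 0.161 in the mock.

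After 24 h of NaCl, genes changed in both directions. A gene was called where the adjusted p of edgeR's quasi-likelihood test was under 0.05 and the absolute log2 fold change over 1, and 4670 of 19588 genes tested passed (23.8%), 2517 of them higher (12.8%) and 2153 lower (11%). Log2 fold changes went beyond 3 in size for 434 of the higher and 105 of the lower genes, and beyond 5 for 130 and 9. The 3 and 3 libraries did not overlap for 2455 of the higher and 2116 of the lower genes, beside 63.1% of all genes tested. The median level of the higher genes was 3.57 CPM in mock and 14.5 CPM in NaCl leaves, and that of the lower genes 20.8 and 6.99 CPM, with 12.5 and 13.4 CPM over all genes tested. A choice by change from the mock favours a low mock level in the higher genes and a high mock level in the lower genes. These medians are therefore a description. By quintiles of mean abundance, the share called higher went from 18.6% in the weakest quintile to 10.2% in the strongest. The share called lower had no such order, with 11.3%, 12.5%, 9.32%, 8.83% and 13.0% from the weakest to the strongest. Of the 100 most abundant transcripts of mock leaves, 55 were called lower and 2 higher, and of the 100 most abundant of NaCl leaves 20 were called lower and 29 higher. A ranking by 1 of the compared groups favours the genes that are higher in it, so these counts are a description. Of the mock list, 58 were also among the 100 most abundant of NaCl leaves.

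**Figure D1:**
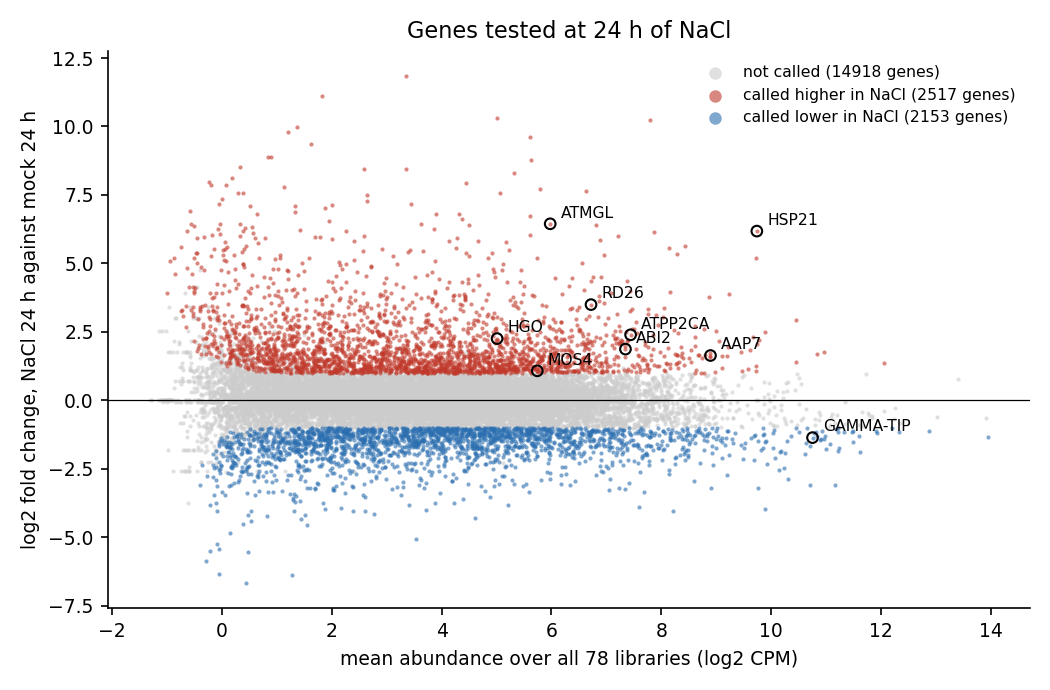
Each point is a gene tested, with its mean abundance over all 78 libraries (log2 CPM) on the x axis and the log2 fold change of NaCl 24 h against mock 24 h on the y axis. Red points are the 2517 genes called higher and blue points the 2153 called lower, and the 9 genes with a symbol are circled, 8 of them above 0 and GAMMA-TIP below it.

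The balance of the calls depended on the scaling. Higher genes were 53.9% of the calls with TMM, 50.5% with RLE scaling and 64.4% with library totals alone. TMM compares every library with a reference library, here cold 6 h replicate 2. With mannitol 72 h replicate 3 as the reference in all 78 libraries, an alternative added after the data had been seen, higher genes were 49.1% of the calls. NaCl replicate 2 showed the response most strongly, being the highest of the 3 NaCl libraries for 54.2% of the higher genes and the lowest for 58.2% of the lower genes. Without it 4418 genes were called.

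The genes called higher took 19.3%, 22.1% and 19.6% of the counts on tested genes in the NaCl libraries and 4.97%, 4.62% and 4.70% in the mock libraries. The genes called lower took 12.3%, 10.9% and 12.9% in NaCl and 30.7%, 30.6% and 31.1% in the mock. These shares describe the genes the comparison itself selected. In NaCl libraries of the other times, which did not select them, the higher genes took 10.2% to 10.5%, 11.5% to 12.2%, 11.7% to 12.9% and 11.0% to 12.1% of counts at 3, 6, 12 and 72 h in that order. The mock libraries of those times held 6.15% to 6.30%, 7.27% to 10.6%, 6.07% to 7.94% and 6.29% to 7.62%. The ranges of NaCl and mock did not overlap at any of the 4 times. Mock 6 h replicate 1 held the 10.6%, and its nearest library was one of mannitol 6 h.

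**Figure D2:**
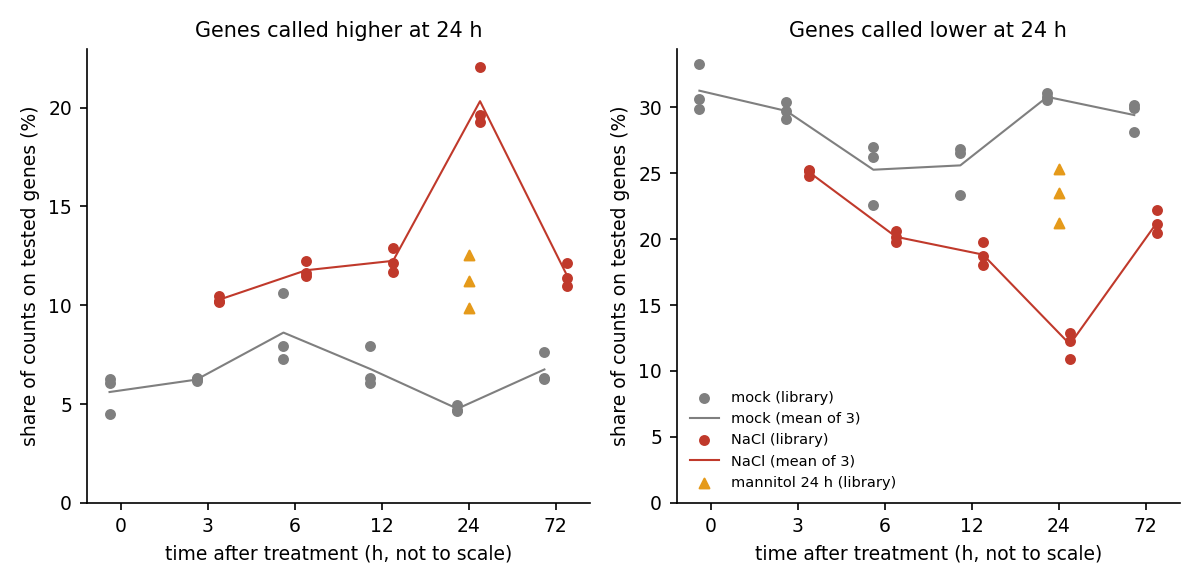
The y axis gives the percent of counts on tested genes that fell on the genes called higher (left) or lower (right) at 24 h, and the x axis the time in hours, evenly spaced. Points are libraries, lines join means of 3, and triangles are the mannitol 24 h libraries. At 24 h the NaCl libraries lay between 19.3% and 22.1% on the left, above the mock libraries at 4.62% to 4.97%.

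RD26 and the genes read as PP2CA and ABI2, which in Arabidopsis are tied to ABA, are given as a description. The study picked the heatmap genes on these samples, and the identifiers of the latter were also chosen by their rank and direction in these data, so none of these directions is independent evidence. RD26, a NAC transcription factor induced by dehydration and ABA (scaffold213.1), read 136, 180 and 157 CPM in NaCl and 13.2, 15.9 and 12.8 CPM in mock leaves. The groups were far apart, and the log2 fold change was 3.50 ± 0.20 (SE, n = 3 and 3, edgeR adjusted p = 5.31e-23). PP2CA, a clade A phosphatase that restrains ABA signalling (labelled ATPP2CA, scaffold1184.9), read 204, 224 and 217 CPM against 38.9, 42.3 and 41.7 CPM. Its log2 fold change was 2.39 ± 0.16. ABI2, a phosphatase of the same clade (scaffold862.18), read 237, 247 and 232 CPM against 62.5, 72.3 and 61.2 CPM, a log2 fold change of 1.87 ± 0.12. Both phosphatase genes were already higher at 3 h, by 2.30 for PP2CA and 2.37 for ABI2 on the log2 scale, and at 72 h the log2 fold changes were 0.36 and 0.26. RD26 had log2 fold changes of 2.21 at 3 h and 0.63 at 72 h. The NaCl level of RD26 was about as high at 3 h (165 to 192 CPM) and 12 h (134 to 160 CPM) as at 24 h, while its mock level was 31.0 to 44.9 CPM at 3 h and 29.4 to 32.2 CPM at 12 h, above the mock 24 h libraries. Against mock 0 h the log2 fold change of RD26 at 24 h was 1.99 and against mock 72 h 1.82. PP2CA and ABI2 were also higher in mock leaves at 72 h, at 98.3 to 113 CPM and 134 to 164 CPM, than at 24 h.

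The other symbols are an aquaporin, 3 genes of amino acid metabolism or transport, a heat shock protein and MOS4. GAMMA-TIP, an aquaporin of the vacuolar membrane (scaffold1432.12), read 1100, 1050 and 1194.93 CPM in NaCl and 2667, 2847 and 3084 CPM in the mock. All 3 NaCl values were under all 3 mock values, with a log2 fold change of −1.36 ± 0.11 (edgeR adjusted p = 6.63e-17). Its log2 fold changes at the other times were −1.28, −0.97, −1.67 and −1.16 at 3, 6, 12 and 72 h. MGL, methionine gamma-lyase, which breaks down methionine (labelled ATMGL, scaffold567.88), read 168, 177 and 164 CPM against 1.93, 1.68 and 2.16 CPM, a log2 fold change of 6.45 ± 0.48. The mock 24 h libraries were low for this gene too, and against mock 0 h the value was 4.33. HGO, homogentisate dioxygenase of tyrosine breakdown (scaffold739.4), read 56.3, 56.3 and 54.3 CPM against 10.7, 12.1 and 12.2 CPM, a log2 fold change of 2.25 ± 0.12. AAP7, an amino acid permease family member (scaffold623.59), read 526, 578 and 561 CPM against 167, 222 and 147 CPM, a log2 fold change of 1.64 ± 0.15. AAP7 was also higher at 3 h, with 796 to 861.6 CPM in NaCl and 186 to 188 CPM in the mock.

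HSP21, a small heat shock protein of chloroplasts that keeps other proteins from aggregating (scaffold303.8), read 42.1, 67.9 and 41.9 CPM in NaCl and 0.445, 1.01 and 0.618 CPM in the mock, which rested on 3, 6 and 4 counts. The log2 fold change was 6.18 ± 0.43 (edgeR adjusted p = 2.62e-19), and with mock 0 h in place of mock 24 h it was 3.91. At 3 h its direction was the opposite, with 0.175 to 0.691 CPM in NaCl and 4.26 to 4.80 CPM in the mock, a log2 fold change of −3.24 (adjusted p = 0.00016). The log2 fold change was also negative at 6 h (−1.74, edgeR adjusted p = 0.026) and at 12 h (−1.31, adjusted p = 0.062). The heat 24 h leaves of the series held 7851 to 9217 CPM of it. MOS4, part of a complex that associates with the spliceosome (scaffold1129.32), read 71.3, 68.5 and 62.0 CPM against 33.2, 27.5 and 34.8 CPM. Its log2 fold change of 1.08 ± 0.10 lay just past the limit. The call was lost without NaCl replicate 1 (0.96), without NaCl replicate 2 (0.99) and without mock replicate 2 (0.91). In these fits TMM also took another reference library, mannitol 72 h replicate 3, so the losses do not by themselves point to a replicate. With that reference and all libraries kept, MOS4 was still called.

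**Figure D3:**
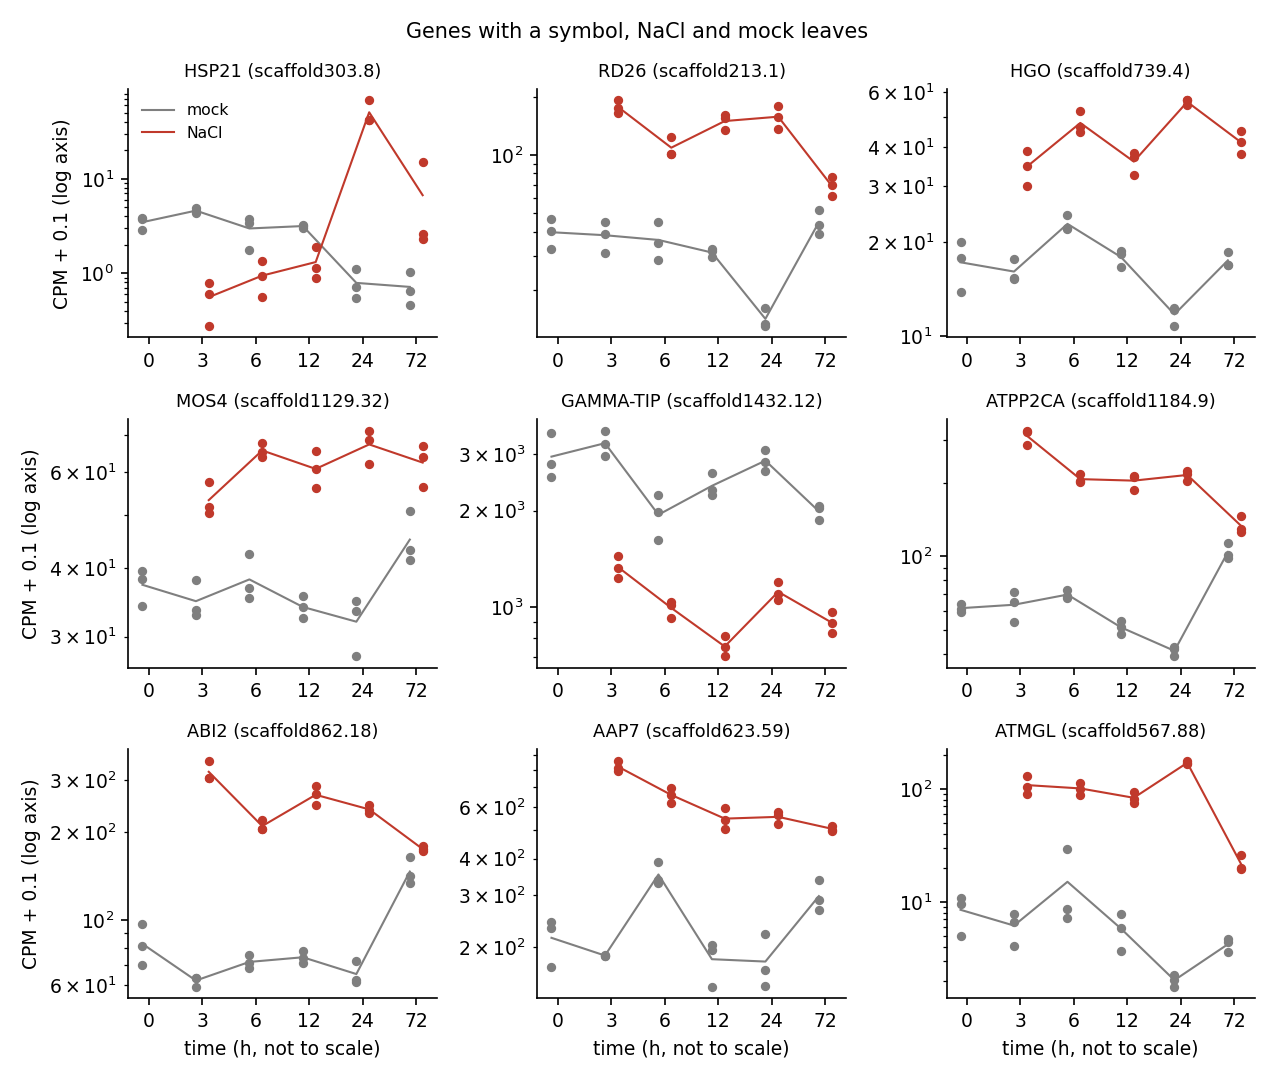
Each panel is a gene with a symbol, with CPM + 0.1 on a log axis against time in hours, evenly spaced, and grey for mock and red for NaCl. Points are libraries and lines join means of 3. HSP21 lies below the mock at 3 h (0.175 to 0.691 CPM), 6 h and 12 h, and above it at 24 h (41.9 to 67.9 CPM). GAMMA-TIP lies below the mock throughout, which the choice of its identifier favoured.

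Among genes with at least 10 CPM in the higher group, the largest rises were of genes with almost no counts in mock 24 h leaves, and none of these genes carries a name in the sources used here. Scaffold358.34 read 1659, 2128 and 1722 CPM in NaCl and 1.48, 1.85 and 1.24 CPM in the mock, which were 10, 11 and 8 counts. Its log2 fold change was 10.22 ± 0.79, and mannitol leaves at 24 h held 601 to 731 CPM and cold leaves 400 to 503 CPM. Scaffold1621.2 read 340, 442 and 372 CPM against 0.594, 0.503 and 0.309 CPM, a log2 fold change of 9.62 ± 0.71. Scaffold490.32 had 2 counts in the 3 mock libraries together and 127, 200 and 156 CPM in NaCl, a ratio of 1547 with a 95% counting interval from 428 to 12779. Scaffold546.41 had no count in the mock 24 h libraries and 59.6, 90.7 and 79.7 CPM in NaCl, at least 491-fold higher against a floor of 3 counts over the group. On the same floor scaffold572.3 was at least 300.3-fold, scaffold809.75 at least 134-fold, scaffold702.33 at least 120-fold and scaffold371.8 at least 88.5-fold higher. Scaffold702.33 and scaffold809.75 read 13.5 to 23.6 CPM and 18.9 to 22.4 CPM in NaCl leaves. Such bounds cover counting error only.

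Among genes with at least 10 CPM in the mock, the deepest falls were smaller. Scaffold449.17 read 0.602, 0.727 and 0.754 CPM in NaCl and 16.8, 24.5 and 30.6 CPM in the mock, a log2 fold change of −5.06 ± 0.43. Mannitol leaves held 16.8 to 22.5 CPM of it, and NaCl lay under mannitol by −4.79 on the log2 scale (edgeR adjusted p = 1.59e-13). Scaffold999.47 read 2.56, 2.33 and 3.77 CPM against 50.5, 59.9 and 60.6 CPM (log2 fold change −4.30 ± 0.26). Scaffold668.47 read 77.96, 47.2 and 78.6 CPM against 1054, 1036 and 1276 CPM (−4.05 ± 0.27), and it was lower at 3 h as well (−2.64). Scaffold748.4 read 39.6, 18.6 and 43.2 CPM against 536, 495 and 565 CPM (−3.98 ± 0.28), while cold leaves at 24 h held 910 to 1145 CPM. A lack of overlap between the NaCl and mock libraries was a condition for this list, so their separation is not a finding. The other 4 genes of the rule, scaffold836.64, scaffold65.226, scaffold525.8 and scaffold792.41, had log2 fold changes of −4.14, −4.05, −4.02 and −3.93. With mock 72 h in place of mock 24 h scaffold792.41 was at −0.71 (edgeR adjusted p = 0.26) and its call was lost, and scaffold525.8 was at −4.80 without NaCl replicate 3. The 4 genes read 0.291 to 3.32 CPM in NaCl and 9.06 to 33.2 CPM in the mock.

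By RNA gained, scaffold861.46 stood first. It read 6042, 8452 and 6671 CPM in NaCl and 411, 19.8 and 144 CPM in the mock. The mock libraries differed widely among themselves, and over all 18 mock libraries the range was 7.10 to 669 CPM, below every NaCl 24 h library. Its log2 fold change was 5.20 ± 0.81 (edgeR adjusted p = 1.24e-07). It was 6.36 without mock replicate 1 and 4.59 without mock replicate 2. Scaffold890.65, also uneven in the mock, read 1950, 2442 and 2165 CPM against 189, 81.7 and 206 CPM (3.78 ± 0.56). Scaffold569.9 was even in both groups, with 3061, 3322 and 3446 CPM against 396, 447 and 459 CPM (2.92 ± 0.16). Its mannitol 24 h level was near the NaCl level, at 2543 to 3131 CPM. Scaffold1045.27 (5811, 7764 and 5805 against 2653, 2351 and 2596 CPM) and scaffold649.19 (3080, 4544 and 3580 against 1209, 1117 and 989 CPM) rose by 1.35 and 1.76 on the log2 scale. For scaffold1405.6 the log2 fold change was 1.68 ± 0.49, and the mock libraries read 1841, 817 and 1481 CPM. Scaffold1405.6 and scaffold1045.27 were no longer called with mock 72 h in place of mock 24 h (0.90 and 0.52), nor was scaffold1045.27 with mock 0 h (0.74).

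By RNA lost, scaffold92.11 stood first, at 24918, 23385 and 25012 CPM in mock and 9750, 9277 and 10252 CPM in NaCl leaves, a log2 fold change of −1.32 ± 0.13 (edgeR adjusted p = 3.20e-13). The level of this gene in mock leaves ran from 8745 CPM at 12 h to 30626 CPM, so the NaCl 24 h level lay within the range of the mock over the series. Scaffold551.78 fell from 5572, 5725 and 6272 CPM to 720, 531 and 798 CPM (−3.10 ± 0.21), under the lowest of the 18 mock libraries (2226 CPM). Scaffold170.97 fell from 6446, 6023 and 6436 CPM to 1705, 1671 and 1795 CPM (−1.87 ± 0.16), and its mock range over the series was 472 to 8115 CPM. Scaffold206.26 read 3842, 3265 and 4041 CPM against 8110, 7842 and 8512 CPM in the mock (−1.13 ± 0.14). With library totals in place of TMM its log2 fold change was −0.98, short of the limit. Scaffold492.5 and scaffold693.5 had log2 fold changes of −1.17 and −1.76. Mannitol leaves at 24 h held 4775 to 5745 CPM of scaffold492.5 and 9059 to 11130 CPM of scaffold206.26, and NaCl lay under mannitol for both, by −1.30 and −1.45 on the log2 scale (edgeR adjusted p = 9.83e-12 and 5.24e-13).

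The genes with the smallest p among those that rose mostly had small fold changes during the first 12 h. Scaffold606.34 read 560, 690 and 653 CPM in NaCl and 13.8, 12.1 and 12.5 CPM in the mock (log2 fold change 5.63 ± 0.21, edgeR adjusted p = 1.86e-31). Scaffold338.51 read 601, 605 and 611 CPM against 12.3, 11.9 and 14.1 CPM (5.56 ± 0.22), with log2 fold changes of −0.01 at 3 h, −0.16 at 6 h and 0.16 at 12 h. Scaffold394.89 read 120, 144 and 138 CPM against 3.56, 3.02 and 3.40 CPM (5.32 ± 0.21). Scaffold1367.2 read 245, 255 and 258 CPM against 0.594, 2.01 and 1.24 CPM (7.63 ± 0.29). At 12 h the log2 fold changes of scaffold606.34, scaffold394.89 and scaffold1367.2 were 0.62, 0.55 and 2.04, and at 72 h they were 1.43, 1.13 and 1.84. Heat leaves at 24 h held 1851 to 2854 CPM of scaffold606.34, 630 to 818 of scaffold338.51, 805 to 1260 of scaffold394.89 and 281 to 516 of scaffold1367.2. Mannitol leaves at 24 h held 97.9 to 155 CPM, 99.2 to 131, 21.4 to 34.9 and 45.5 to 73.3 of the same genes, and cold leaves 1.64 to 44.1 CPM. NaCl lay over mannitol by 2.08 to 2.39 on the log2 scale for all 4 (edgeR adjusted p from 2.96e-17 to 3.03e-14). The other gene of this list, scaffold162.16, read 622, 526 and 631 CPM against 104, 93.3 and 98.1 CPM (2.59 ± 0.10), and its heat level was 119 to 134 CPM.

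**Figure D4:**
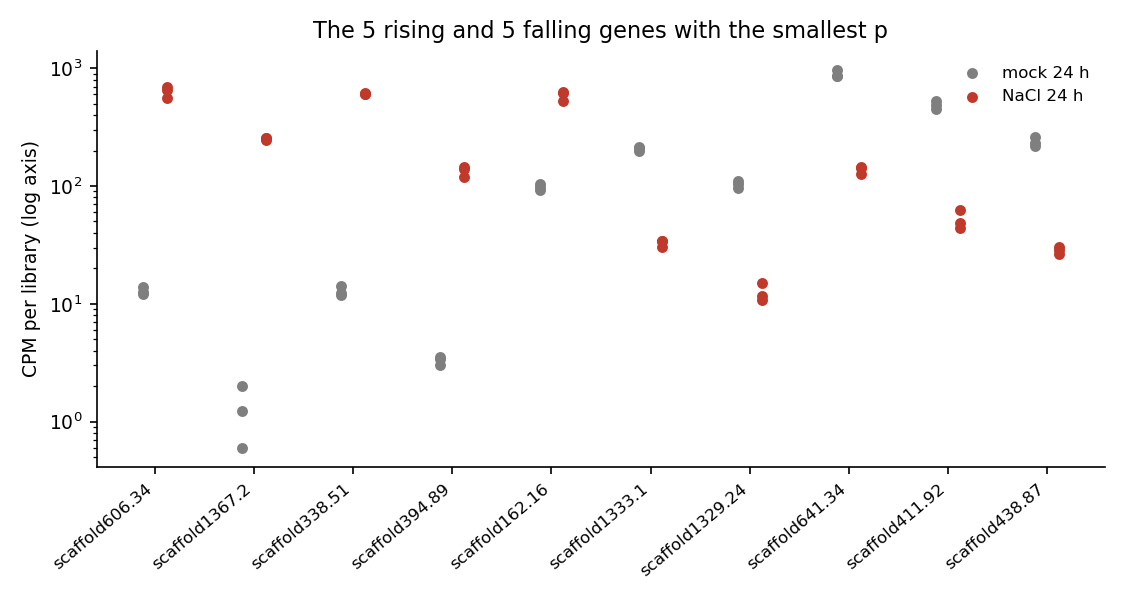
CPM per library on a log axis for the 5 rising and 5 falling genes with the smallest p at 24 h, 3 mock (grey) and 3 NaCl (red) points each. The replicates of a group lie close together, as for scaffold338.51 at 601 to 611 CPM in NaCl and 11.9 to 14.1 CPM in the mock. A choice by smallest p favours genes with close replicates, so this is a description.

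The falling genes with the smallest p were scaffold1333.1, scaffold1329.24, scaffold641.34, scaffold411.92 and scaffold438.87. Scaffold1333.1 read 34.3, 30.5 and 34.1 CPM in NaCl and 198, 211 and 216 CPM in the mock (−2.66 ± 0.11, edgeR adjusted p = 1.05e-29). Scaffold411.92 read 48.9, 43.8 and 62.2 CPM against 452, 491 and 532 CPM (−3.25 ± 0.16), and NaCl lay under mannitol by −2.89 (edgeR adjusted p = 1.66e-21). This gene varied strongly in the mock over the series, from 3.47 CPM to 546 CPM, and at 12 h it was near the bottom in both treatments (3.62 to 4.71 CPM in NaCl, 3.47 to 6.38 CPM in the mock). Scaffold641.34 read 145, 126 and 143 CPM against 867, 864 and 973 CPM (−2.71 ± 0.13) and also had a wide mock range, 48.7 to 1044 CPM. Scaffold1329.24 and scaffold438.87 had log2 fold changes of −3.04 and −3.06. Against mock 0 h the values of scaffold1333.1 and scaffold438.87 were −1.37 and −1.38. Both also varied strongly in the mock over the series, from 6.83 to 219 CPM and from 4.25 to 309 CPM. The NaCl 24 h levels of both lay within these ranges.

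A further question is which genes were absent from mock leaves. At most 3 counts in each mock 24 h library were found for 787 tested genes, of which 310 were called higher in NaCl (39.4%, beside the 12.8% of all genes tested). A gene this low in the mock can pass the filter only through other libraries and can hardly be called lower, so the share is a description. The mock count was 0 in all 3 libraries for 55 of them. At most 3 counts in each of all 18 mock libraries were found for 57, of which 15 stayed at or under 3 counts in the NaCl libraries of the other times and 14 in mannitol 24 h. How many of all tested genes were this low in the 18 mock libraries was not counted, so the 57 come without a share. The 5 with the highest NaCl level were scaffold572.3 (43.0, 57.3 and 40.3 CPM), scaffold65.60 (36.7, 45.9 and 50.1 CPM), scaffold809.75, scaffold702.33 and scaffold1346.1 (14.6, 16.6 and 19.9 CPM). Against 2 mock 24 h counts, the ratio was 424 for scaffold65.60 (95% counting interval 117 to 3509) and 163.2 for scaffold1346.1 (44.8 to 1353). At 72 h of NaCl scaffold572.3 still held 5.91 to 8.73 CPM and scaffold65.60 2.57 to 5.40 CPM.

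In the other direction, 114 called genes had at most 3 counts in each NaCl 24 h library, and 0 of them reached 10 CPM in the mock. How many of all tested genes were this low in NaCl 24 h was not counted, so the 114 come without a share and are a description. Scaffold198.30 had 2 counts in each NaCl library and 7.27, 8.22 and 6.95 CPM in the mock, a log2 fold change of −4.56 ± 0.50. With mock 72 h in its place the value was −1.65 (adjusted p = 0.055) and the call was lost. Scaffold1008.18 had 1 count in the 3 NaCl libraries and 20, 54 and 38 in the mock, a ratio of mock to NaCl of 118 with a 95% counting interval from 20.7 to 4691. For scaffold1675.3 the ratio was 56.2 (15.2 to 470.3) and for scaffold1329.44 25.9 (8.53 to 129). Scaffold1682.12 had 2, 0 and 2 counts in NaCl and 27, 23 and 26 in the mock.

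Called genes stood side by side on the scaffolds. Where the next-numbered identifier was also tested, it was called higher for 334 of 1522 higher genes (21.9%, beside 12.6% over all such neighbours) and lower for 243 of 1429 lower genes (17.0%, beside 11.0%). Runs of at least 4 consecutive genes called in 1 direction numbered 9 for higher and 6 for lower, and the longest held 7 genes each. Scaffold859.1 to scaffold859.5 rose together, from a summed 56.7 CPM to 764 CPM, with log2 fold changes of 2.31 to 4.52. At 12 h the same 5 genes ranged from −1.53 to 1.44. Scaffold257.13 to scaffold257.17 fell together, from a summed 5503 CPM to 1540 CPM, with −2.04 to −1.57 at 24 h and −2.57 to −0.90 at 12 h. The run of 7 lower genes, scaffold1056.9 to scaffold1056.15, went from 23.8 to 3.77 CPM summed. Neighbouring genes can be near-identical copies among which the authors' counting may have split or dropped reads, and how strand was set in the counting is not given in the sources used here, so neighbours are not independent measurements.

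The response at 24 h was then set beside NaCl at the other times, each against the mock of its own hour and with libraries that did not enter the 24 h comparison. Of the 2517 higher genes, 730, 285, 655 and 494 were called higher at 3, 6, 12 and 72 h in that order, where 5.14%, 2.42%, 4.72% and 3.68% of all tested genes were. Their median log2 fold change was 0.74, 0.38, 0.71 and 0.49 at these times, beside the 1.70 at 24 h that selected them. Of the 2153 lower genes, 370, 319, 457 and 192 were called lower at those times, where 2.73%, 3.39%, 3.59% and 2.11% of all tested genes were, with medians of −0.45, −0.42, −0.53 and −0.42, beside −1.49 at 24 h. The median over all tested genes lay between 0.02 and 0.08. Calls at all 5 times were shared by 59 higher and 23 lower genes. In the opposite direction at some other time, 139 higher and 37 lower genes were called. The matching shares over all tested genes were not counted, so these 4 counts are a description. At 6 h, 80 of the higher genes were called lower, and without mock 6 h replicate 1 this count was 8.

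**Figure D5:**
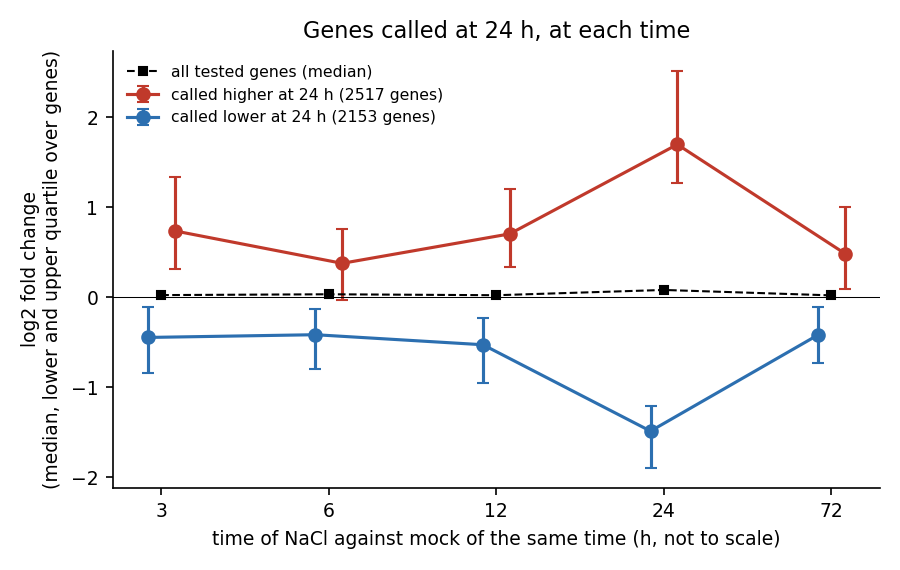
Points are the median log2 fold change of NaCl against the mock of the same hour, over the 2517 genes called higher at 24 h (red), the 2153 called lower (blue) and all tested genes (black squares), and bars span the lower and upper quartile over genes. The 24 h values selected the genes, and the medians of the other times lie between 0.38 and 0.74 for red and between −0.53 and −0.42 for blue.

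Whether the effect of NaCl at 24 h differed from that at another time was tested as a difference of differences. Against 3 h, the effect was higher for 4.71% and lower for 6.37% of all tested genes. Against 6 h these shares were 8.25% and 6.89%, against 12 h 4.83% and 5.76%, and against 72 h 7.69% and 7.23%. The 24 h libraries enter both the calls and this test, so the counts among the called genes are a description. Of the 2517 higher genes 754, 1353, 771 and 1191 had a higher effect at 24 h than at 3, 6, 12 and 72 h, and 285 in all 4 tests. In none of the 4 tests did 592 higher genes have a higher effect. Of the 2153 lower genes 992, 1051, 852 and 1095 had a lower effect at 24 h, 316 in all 4 tests and 362 in none. Without mock 6 h replicate 1 the test against 6 h called 2549 genes in place of 2966.

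Among genes named above, scaffold338.51 and scaffold606.34 differed from 12 h by 5.41 and 5.01 on the log2 scale (edgeR adjusted p = 1.2e-21 and 4.5e-22). HSP21 differed by 7.49 (1.1e-11) and RD26 by 1.23 (0.00024). The HSP21 value rests on low levels outside NaCl 24 h. These were 0.445 to 1.01 CPM in mock 24 h, 0.784 to 1.81 CPM in NaCl 12 h and 2.95 to 3.18 CPM in mock 12 h. For GAMMA-TIP and AAP7 the differences were 0.31 and 0.05 (adjusted p = 0.13 and 0.90). The 8 genes with the largest differences from 12 h were mostly near the floor, and their fitted values depend on the prior count, so only levels are given. Scaffold546.41 had 0 CPM in mock 24 h and 72 h, up to 11.4 CPM in mock 6 h and up to 5.09 CPM in mock 12 h, 0 to 0.15 CPM in NaCl 6 h and 0 to 0.56 CPM in NaCl 12 h, 59.6 to 90.7 CPM in NaCl 24 h and 34.9 to 39.4 CPM in NaCl 72 h. Scaffold973.10 read 27.4, 29.2 and 5.28 CPM in NaCl 24 h and 0.891, 0.335 and 0 CPM in the mock, but a mock library of another time held 422 CPM of it. Scaffold1577.21 read 10.7, 4.51 and 1.21 CPM and scaffold424.96 2.86, 3.63 and 2.56 CPM in NaCl 24 h, while mock libraries of other times reached 28.8 and 19.7 CPM. In mock 12 h, all counts of each of these 4 rising genes lay in a single library, which for scaffold973.10 held 72.3 CPM. The negative NaCl effects at 12 h that enter their differences therefore rest on a single mock library for each gene. With DESeq2, scaffold1577.21 was not called (adjusted p = 0.12). The falling 4 were scaffold1008.18, scaffold446.7, scaffold375.1 and scaffold1613.6, and the last 3 read at most 1.51 CPM in any mock 24 h library.

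Mannitol at 400 mM gives an osmotic stress without added salt, and NaCl was compared with it directly at 24 h. The solutions were matched in molar concentration, which does not make their osmotic strength equal. An effect of the ions and a difference in osmotic strength cannot be told apart here. NaCl was higher for 4.84% of all tested genes and lower for 4.66%. Counts of the genes called against the mock are not given here, because both comparisons hold the same NaCl libraries. For PP2CA and ABI2 the difference between NaCl and mannitol was 0.11 ± 0.15 and 0.16 ± 0.12 on the log2 scale (SE, edgeR adjusted p = 0.61 and 0.31), with mannitol at 178 to 213.4 CPM and 196 to 226 CPM. For RD26, MGL and HGO the difference was 0.60, 0.80 and 0.78 (adjusted p = 0.0033, 0.036 and 4.92e-08), short of the call limit of 1. HSP21 was higher in NaCl by 2.61 (adjusted p = 9.11e-11), with mannitol at 5.88 to 10.4 CPM. GAMMA-TIP was lower in NaCl by −0.56 (adjusted p = 2.34e-05), with mannitol at 1386 to 1841 CPM.

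The choice of mock also mattered, since the mock leaves themselves changed with time. Mock 24 h was higher than mock 12 h for 1317 genes and lower for 1620, against mock 0 h for 162 and 527, and against mock 72 h for 423 and 420. With mock 0 h in place of mock 24 h, 9.92% of genes were called higher and 10.6% lower in NaCl 24 h, and with mock 72 h 9.22% and 9.23%. The direction called with mock 24 h was called again with both other mocks for 1109 of the 2517 higher genes (44.1%) and 1132 of the 2153 lower genes (52.6%), all 3 sharing the NaCl libraries. Of the genes with a symbol, MOS4 was short of the limit with both (0.85 and 0.58), and ABI2, AAP7 and GAMMA-TIP were short of it with mock 72 h (0.71, 0.90 and −0.84).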

How the data were processed

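The deposited table holds read counts per gene that the authors made as whole numbers without normalization, from strand-specific paired reads trimmed with cutadapt 1.9.1, aligned with HISAT2 to the CM334 genome and counted with featureCounts 1.5.2. All 78 columns map to a sample, and 0 were left out. The labels gave each library its group and replicate number. In R 4.3.3 with edgeR 4.0.16 (limma 3.58.1), low genes were removed with filterByExpr over the groups, TMM factors scaled the totals, and 1 quasi-likelihood fit held all 78 libraries, with a joined factor of treatment and time and no block, as the study's methods describe (52 residual degrees of freedom, biological coefficient of variation 11.4%). Benjamini-Hochberg adjustment ran over all tested genes of a contrast. Each SE was the absolute log2 fold change divided by the square root of the test's F, with a spread estimated from all 78 libraries. CPM used the TMM-scaled totals, and log2 CPM a prior count of 2. The fit was first tested on simulated data with known changes. Intervals and floors cover counting error only, since reads carry no molecular identifiers.

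Genes were named by a rule: 4 symbols of the study's heatmap with a legible identifier, and those of its other symbols for which exactly 1 reading of blurred digits ranked among the first 100 genes of each stress showing it, in the direction shown, which gave 9 of 13 symbols, the 8 largest log2 fold changes in each direction with at least 10 CPM in the higher group and no overlap, the 6 largest gains and losses of CPM, the 5 smallest p in each direction, the 4 largest differences from 12 h in each direction, and the 5 most abundant genes at or under 3 counts in all mock libraries or in NaCl 24 h. The members and lists were chosen with earlier results of these data known. Alternatives were DESeq2 1.42.0, the replicate block, the 6 libraries alone, other filters, scalings and limits, other mock times and each replicate left out in turn, and, chosen after seeing the data, another TMM reference and the fit without mock 6 h replicate 1. The p-values measure the spread between pools of plants.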

Additional observations from a re-analysis of the deposited data

Results flagged for a closer look

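The effect of NaCl differed between 24 h and each of the other times by the test of the difference itself (edgeR's quasi-likelihood test, Benjamini-Hochberg adjusted p under 0.05 and absolute log2 difference over 1). Genes passing were 2171 against 3 h, 2966 against 6 h, 2074 against 12 h and 2923 against 72 h, of 19588 tested. All 4 tests share the 24 h libraries, so they are not independent of each other. Groups of 3 libraries are too small for a test of single outlying values.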

How the results depend on the processing

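The count of called genes stayed within 1.5 times of 4670 under every alternative but the adjusted p alone. With it, 10799 genes passed, 5835 higher and 4964 lower. Leaving out each 24 h replicate in turn gave 4418 to 4744 calls (2147 to 2304 higher and 2271 to 2440 lower), and 88.9% to 92.6% of the 4670 calls were made again in the same direction. In all 6 of these fits TMM also took another reference library, and with such a reference and all 78 libraries the calls were 4651, 2283 higher and 2368 lower, so the shift of the split does not by itself point to a replicate. The median log2 fold change of all genes was 0.08 with TMM, 0.03 with RLE and 0.23 with library totals, under which 3096 genes were higher and 1708 lower. DESeq2 called 4556 genes and the 6 libraries alone 4193. The same-numbered NaCl and mock libraries did not deviate together (correlations 0.03, −0.02 and 0.02), and 1 of 3 correlated best with its own number. No shared effect of the number was seen, which does not tell how the samples were grown or harvested. The replicate block gave 4654 calls. Genes at or under 3 counts in mock 24 h and called higher numbered 310, and 55 with a floor of 0 counts.

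Of the 60 named genes, 8 lost the call with mock 72 h and 2 with mock 0 h in place of mock 24 h. The 1 lost with library totals was scaffold206.26, the 1 lost with DESeq2 was scaffold1577.21, and MOS4 was the 1 lost in each of 3 fits without a replicate. None of the 60 changed direction in the fits that followed single genes, which leave out the changes of limit and filter. With the 6 libraries alone 56 of them were tested. Library totals of 6276225 to 7216427 limit what can be said of genes near the floor, where a gene at 0 in all 3 libraries can still have been present at up to 3 counts.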
